A study of Drosophila melanogaster with 6 samples.

Results

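The genes described here encode the subunits of the proteasome, the protease of the cytoplasm and nucleus that degrades proteins tagged with ubiquitin. They were taken by symbol: every gene with a single-gene probe set whose symbol begins with Rpn or Rpt and a digit, or with Prosalpha or Prosbeta, represented by its probe set of highest mean. This gave 40 of the 11981 genes with a single-gene probe set, each with 1 probe set. The RefSeq annotation holds 48 genes with such symbols. The other 8, Prosalpha1, Prosalpha1R, Prosbeta1, Rpn9, Rpn10, Rpt1, Rpt6 and Rpt6R, were not measured by a probe set of their own.

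Whole prepupae of the fly Drosophila melanogaster were sampled at 0 h, as the larva forms its puparium and metamorphosis begins. One genotype was homozygous for the L1 allele of Sox14 (sox14L1/sox14L1) in the w1118 background. Sox14 encodes an HMG-box transcription factor. The control was w1118 itself, so both groups carry that strain background. Each of the 6 Affymetrix arrays, 3 per genotype, held RNA of 10 animals, and no label states that samples of 1 genotype were reared apart. The p-values therefore measure the spread between these samples, which may be technical, and precision is limited by having so few arrays. What the allele changes in the gene is not stated in the labels. The comparison asks which transcript levels differ when Sox14 is mutant as metamorphosis starts.

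The proteasome has a barrel-shaped core particle, called 20S, capped at one or both ends by a regulatory particle, called 19S. The core is built of alpha rings, which gate the entrance, and beta rings, which carry the proteolytic sites. In the regulatory particle, the Rpt subunits form a ring of ATPases that unfolds the substrate, and the Rpn subunits bind ubiquitin, remove it and hold the particle together. Drosophila also has paralogs of several subunits, named with an added R or T, many of which are known from the male germ line. Insects remodel their tissues at metamorphosis, and the proteasome is one of the routes by which proteins are cleared then.

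All values are log2 values after RMA, the method that corrects background, normalises between arrays and summarises the probes of a probe set. A change is mutant minus control with its standard error (SE), group levels are means ± SD over 3 arrays, and a gene is called when its adjusted p in limma is under 0.05 with the Benjamini-Hochberg method applied to all 18769 tested probe sets. A level shows how a probe set differs between arrays and is not set against the level of another probe set. Because whole animals were used, fewer cells of a type and less RNA per cell cannot be told apart.

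Sox14 itself read 10.34, 10.67 and 10.73 on the mutant arrays and 11.40, 11.60 and 11.72 on the control arrays. The mutant arrays were all below the controls, and the change was -0.99 ± 0.13 (adjusted p = 0.00101 in limma). The first mutant array stood apart in control probe sets, with an 18S rRNA mean of 12.18 against 7.56 to 7.94 on the other 5 arrays and a 3' minus 5' difference for actin of 1.77 against 0.54 to 0.88. Values without this array are given beside those of the 19S, 20S, paralog and testis groups and of the companion lists. For the markers of other tissues they were not computed.

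Of the 40 proteasome subunit genes, 7 fell in the mutant and none rose in limma. At an unadjusted p under 0.05 the counts were 13 lower and 2 higher. The share of all genes at that unadjusted threshold was not computed, so such counts here and below have no background beside them. The 7 make up 17.5% of the 40, while 13.4% of all 11981 genes were called lower and 11.3% were called higher, so the share over the whole set lay near the background. The 7 were not spread evenly over the complex. All of them encode subunits of the 19S regulatory particle, of which 14 genes were measured. None of the 12 measured genes of the 20S core and none of the 14 paralogs was called. The difference between these counts was not tested.

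**Figure D1:**
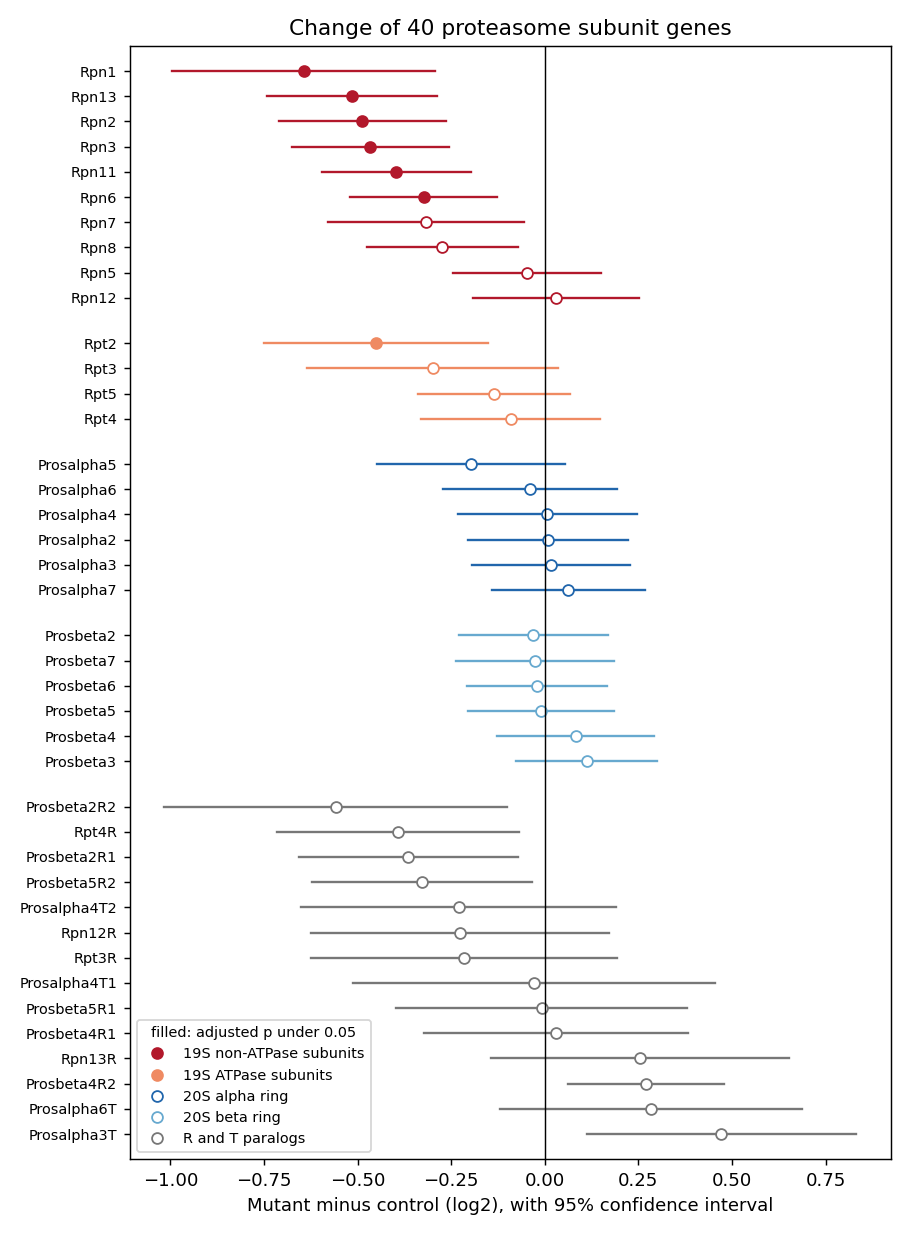
The change of each of the 40 genes (mutant minus control, log2, horizontal axis) with its 95% confidence interval from limma, grouped by place in the complex; filled points had an adjusted p under 0.05. The 7 filled points are all in the 19S groups, and the intervals of all 12 20S genes include 0.

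The 19S genes had a median change of -0.32, and 13 of the 14 changes were negative. The median over all 11981 genes was -0.03. The mean over the 14 genes was 12.11, 12.27 and 12.36 on the mutant arrays and 12.54, 12.55 and 12.60 on the control arrays, so the groups did not overlap. For single genes, all mutant arrays lay below all control arrays in 10 of the 14, or 71.4%, against 24.5% of all genes. Groups without overlap in either direction made up 42.8% of all genes. Without the first mutant array 6 of the 14 were called lower and the median change was -0.29.

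The base of the 19S particle sits on the core and holds the ATPases and the large scaffold subunits Rpn1 and Rpn2. Rpn1, known as a docking site for shuttle proteins that carry ubiquitinated cargo, read 11.01, 11.33 and 11.57 on the mutant arrays and 11.79, 11.94 and 12.12 on the control arrays. It had the largest fall of the 40, -0.64 ± 0.15 (adjusted p = 0.02003), to 64.0% of the control level. The mutant arrays were spread over a wider range than the control arrays, without overlap, and the change was -0.50 (adjusted p = 0.0498) when the first mutant array was left out. Leaving out the second mutant array (adjusted p = 0.0549) or the third control array (0.0754) ended the call. Its probe set is 1637349_at, and the gene lies on chromosome arm 3L.

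Rpn2, the other large scaffold of the base, read 12.27, 12.24 and 12.33 on the mutant arrays and 12.61, 12.84 and 12.84 on the control arrays. The mutant values were tightly grouped and all below the control values. The fall was 0.49 ± 0.10 on the log2 scale (change -0.49, adjusted p = 0.00902). Rpn13, a ubiquitin receptor that is held by Rpn2 and recruits the deubiquitinase Uch-L5, read 11.99, 12.09 and 12.25 against 12.55, 12.64 and 12.69. Its groups were separated by more than the range within either of them, and its change was -0.52 ± 0.10 (adjusted p = 0.00742), the smallest adjusted p of the set. Rpn2 (1638876_at) lies on 3R and Rpn13 (1629266_s_at) on 2R. The Rpn13 probe set is not of the type designed for 1 gene, and whether it also reads other genes was not tested. Uch-L5 itself was not called, with a change of 0.08 ± 0.10 (adjusted p = 0.650).

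Of the 4 measured ATPases, only Rpt2 was called. Rpt2 is known from yeast as one of the ATPases whose tails open the gate of the core. It read 11.55, 11.81 and 12.04 on the mutant arrays and 12.22, 12.18 and 12.35 on the control arrays, a change of -0.45 ± 0.13 (adjusted p = 0.0438). The groups did not overlap, but the mutant arrays covered a range close in size to the change, and the call was lost when any array but the third mutant array was left out (adjusted p from 0.0630 to 0.132) and with quantile normalization (0.0510). Without the first mutant array the change was -0.33. Rpt2 (1630788_at) lies on 3R.

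The other ATPase genes moved less. Rpt3 read 11.998, 12.35 and 12.61 in the mutant against 12.61, 12.58 and 12.66, with a change of -0.30 ± 0.15 (adjusted p = 0.212) that was -0.14 without the first mutant array. Here the third mutant array lay within the control range, so the groups overlapped. Rpt5 had a change of -0.14 ± 0.09 (adjusted p = 0.358), with mutant arrays just below the controls, and Rpt4 one of -0.09 ± 0.10 (adjusted p = 0.626). The 95% intervals of these 3 reached from -0.63 for Rpt3 to 0.15 for Rpt4.

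The lid of the 19S particle removes the ubiquitin chain, and 3 of its 7 measured genes fell, or 42.9% against 13.4% of all genes. Of the 7 measured 19S genes outside the lid 4 fell, or 57.1%. Rpn11, the metalloprotease that cuts the chain from the substrate, read 12.55, 12.67 and 12.66 on the mutant arrays and 13.003, 12.98 and 13.09 on the control arrays. The groups were well separated, with a change of -0.40 ± 0.09 (adjusted p = 0.0141), to 76.0% of the control level. Its catalytically inactive partner Rpn8 read 11.70, 11.71 and 11.86 against 11.99, 12.04 and 12.06. These groups did not overlap either, but the change of -0.27 ± 0.09 did not pass the test (adjusted p = 0.0665).

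The remaining lid subunits are scaffolds with a PCI domain, a fold shared with the COP9 signalosome. Rpn3 read 12.11, 12.26 and 12.32 on the mutant arrays and 12.68, 12.70 and 12.70 on the control arrays, whose arrays were almost identical. It fell by 0.47 on the log2 scale (change -0.47 ± 0.09, adjusted p = 0.00844). Rpn6, which in yeast bridges lid and core, read 12.71, 12.62 and 12.59 against 12.98, 13.01 and 12.92, a change of -0.32 ± 0.09 (adjusted p = 0.0317). The Rpn6 groups did not overlap, and unlike most 19S genes its first mutant array was the highest of the 3. Its call was lost without the second (adjusted p = 0.112) or the third mutant array (0.104), the first (0.0874) or second control array (0.0825) and with the replicate number as a block (0.0672). Rpn3 (1628269_at) and Rpn11 (1628531_at) lie on 2L and Rpn6 (1628466_s_at) on 2R.

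Not all lid genes were lower. Rpn7 read 11.85, 12.19 and 12.21 against 12.38, 12.40 and 12.43, with a change of -0.32 ± 0.12 that missed the threshold (adjusted p = 0.0969) and was -0.20 without the first mutant array. Rpn5 (-0.05 ± 0.09, adjusted p = 0.771) and Rpn12 (0.03 ± 0.10, adjusted p = 0.876) overlapped between the genotypes. The 95% intervals were -0.25 to 0.15 for Rpn5 and -0.19 to 0.25 for Rpn12, which do not include the changes measured for Rpn1, Rpn2, Rpn3 or Rpn13. Sem1, the smallest lid subunit, is outside the symbol rule. Sem1 read 12.91, 12.68 and 12.62 against 12.96, 12.93 and 12.92 and was not called (change -0.20 ± 0.10, adjusted p = 0.224).

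**Figure D2:**
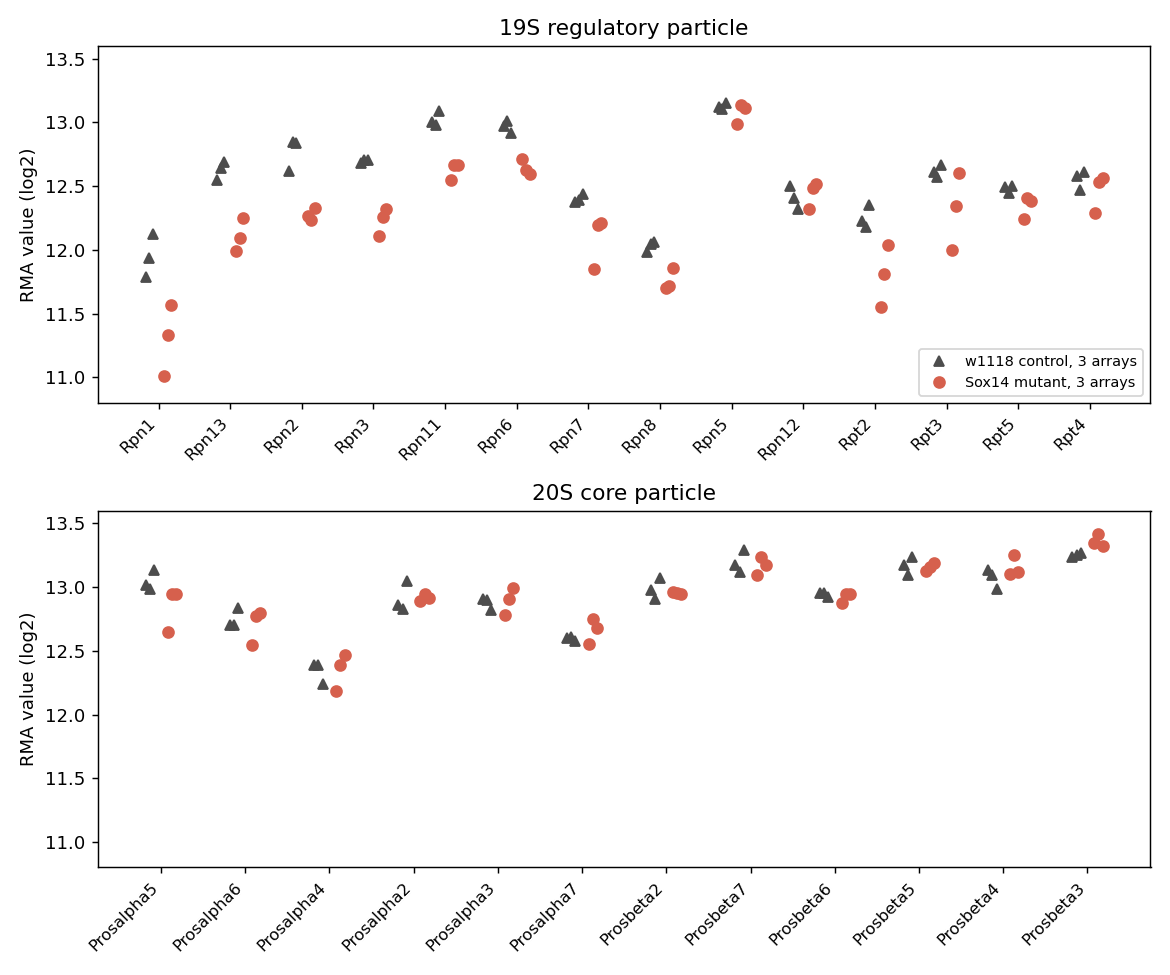
RMA values (log2, vertical axis) of the 14 measured 19S genes (top) and the 12 measured 20S genes (bottom) on each of the 3 mutant arrays (circles) and 3 control arrays (triangles). The circles lie below all triangles in 10 of the 14 19S genes and in 1 of the 12 20S genes, Prosalpha5. The same held for 24.5% of all genes.

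No 20S core gene was called. The median change of the 12 was -0.0015 (lowest -0.20, highest 0.11), 6 of the 12 changes were negative and 6 positive, and the lowest adjusted p was 0.274. Without the first mutant array 2 of the 12 were negative and the median was 0.03, and none was called. At an unadjusted p under 0.05 none was lower and none higher. Their mean was 12.84, 12.97 and 12.96 on the mutant arrays and 12.93, 12.90 and 12.95 on the control arrays, which overlapped. The 95% intervals of single genes reached from -0.45 (Prosalpha5) to 0.30 (Prosbeta3), so falls of the size of Rpn1 lay outside all of them. The smaller changes of Rpn11 (-0.40) and Rpn6 (-0.32) lay within the interval of Prosalpha5.

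In the beta ring, Prosbeta2 carries the trypsin-like site and Prosbeta5 the chymotrypsin-like site. Prosbeta2 read 12.96, 12.95 and 12.95 on the mutant arrays and 12.98, 12.90 and 13.07 on the control arrays, a change of -0.03 ± 0.09 with a 95% interval of -0.23 to 0.17. Prosbeta5 read 13.13, 13.16 and 13.19 against 13.18, 13.10 and 13.23, a change of -0.01 ± 0.09 with an interval of -0.21 to 0.19. The genotypes overlapped for both catalytic subunits. The largest change of the beta ring was in Prosbeta3, a subunit without a proteolytic site, which read 13.34, 13.41 and 13.32 against 13.23, 13.25 and 13.27. Its mutant arrays were all above the controls, yet the change of 0.11 ± 0.08 was not called (adjusted p = 0.420). Prosbeta4, Prosbeta6 and Prosbeta7 had changes of 0.08, -0.02 and -0.03.

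In the alpha ring the largest change was in Prosalpha5, which read 12.65, 12.95 and 12.94 on the mutant arrays and 13.01, 12.99 and 13.13 on the control arrays. The first mutant array was the lowest by far, and although the groups did not overlap, the change of -0.20 ± 0.11 was not called (adjusted p = 0.274). Prosalpha2, Prosalpha3, Prosalpha4, Prosalpha6 and Prosalpha7 had changes between -0.04 and 0.06. A probe set shared by Prosalpha1 and Prosalpha1R, and so outside the rule, read 12.89 ± 0.03 over the mutant arrays and 12.90 ± 0.06 over the control arrays.

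The 19S mean minus the 20S mean was -0.73, -0.70 and -0.60 on the mutant arrays and -0.39, -0.35 and -0.35 on the control arrays. The absolute value depends on the probes and is not read. The difference between the genotypes was -0.31, larger than the range within either group. The first mutant array was the lowest of the 3 mutant arrays for 12 of the 14 19S genes and for 10 of the 12 20S genes. How often it was the lowest over all genes was not computed. Without that array the mean change was -0.25 over the 19S and 0.04 over the 20S genes.

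**Figure D3:**
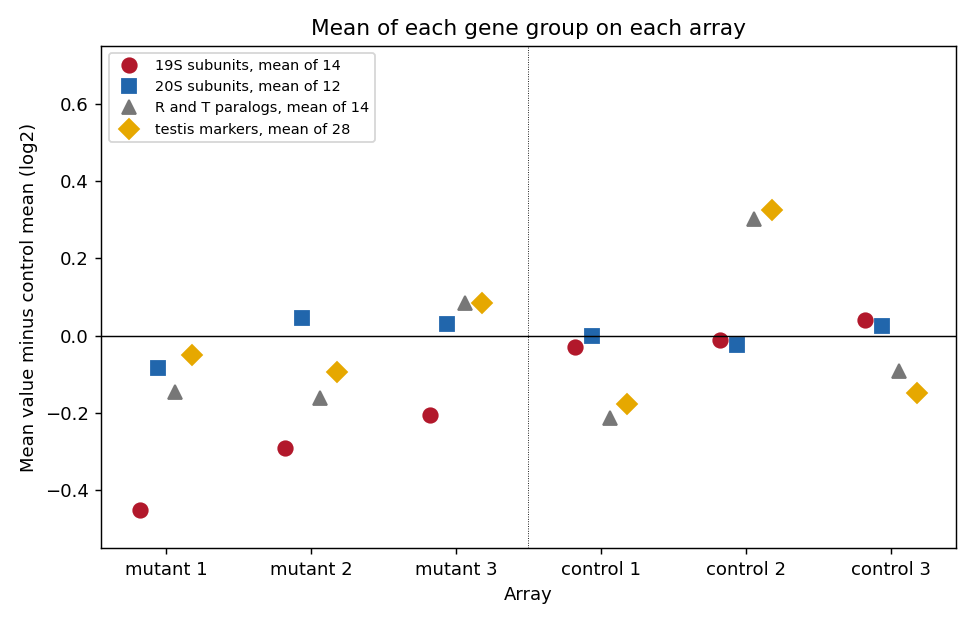
The mean log2 value of each gene group on each array, minus the mean of the 3 control arrays (vertical axis). The 19S mean is below 0 on all 3 mutant arrays, the 20S mean stays near 0 on all 6, and the paralogs and the 28 testis markers are both highest on the second control array.

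The signal was high for both particles. The mean over 6 arrays lay between 11.63 and 13.3 for the 26 genes without the paralogs, and the highest value in the table was 15.43. Among the 546 genes with means in that range 20.5% were called lower and 16.7% higher, against 26.9% of the 26 subunits. The median change of the 546 genes was -0.06.

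**Figure D4:**
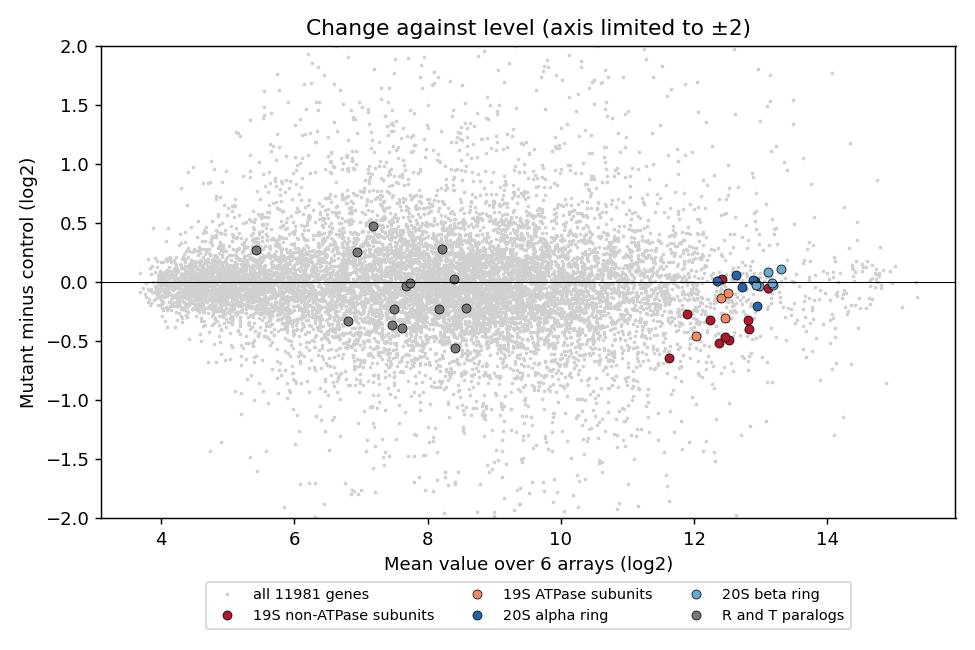
Change (mutant minus control, log2) against the mean value over 6 arrays for all 11981 genes (grey) and the 40 proteasome genes (coloured by group); the vertical axis ends at 2 in both directions, beyond which 203 genes lie. The 26 subunit genes without the paralogs sit between 11.63 and 13.3, with the 19S genes extending downwards and the 20S genes near 0.

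The 14 paralogs read between 5.21 and 9.13 on single arrays, and none was called. Their median change was -0.12, with 9 negative and 5 positive. At an unadjusted p under 0.05, 4 were lower and 2 higher, and 1 of the 2, Prosbeta4R2, lay within the range of the dim control probe sets. Without the first mutant array none was called either, and the median was -0.10. The largest change was in Prosbeta2R2, a paralog of the trypsin-like subunit, which read 7.99, 7.93 and 8.50 on the mutant arrays and 8.39, 9.05 and 8.65 on the control arrays (change -0.56 ± 0.20, adjusted p = 0.0928). Its groups overlapped. Rpt4R, a paralog of an ATPase, read 7.36, 7.37 and 7.52 against 7.63, 8.13 and 7.66, which did not overlap (change -0.39 ± 0.14, adjusted p = 0.0957). In the other direction Prosalpha3T read 7.26, 7.49 and 7.53 against 6.89, 7.29 and 6.68 (change 0.47 ± 0.16, adjusted p = 0.0735), with overlap.

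The remaining paralogs ran from -0.36 for Prosbeta2R1 and -0.33 for Prosbeta5R2, through -0.23 for Prosalpha4T2 and for Rpn12R, -0.22 for Rpt3R, -0.03 for Prosalpha4T1, -0.01 for Prosbeta5R1 and 0.03 for Prosbeta4R1, to 0.25 for Rpn13R and 0.28 for Prosalpha6T. Prosbeta4R2 read between 5.21 and 5.63, within the range of the array's dim control probe sets on all 6 arrays, so no size is given for it.

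Among the control arrays, the second was the highest of the 3 for all 14 paralogs. Their mean was 7.92 there against 7.40 and 7.53 on the other control arrays and 7.46 to 7.70 on the mutant arrays. The same array was the highest control for 25 of 28 genes listed as markers of testis and male germ line. The exceptions were aly, comr and achi. How specific each listed gene is to testis, CycB3 and dhd included, was not tested. The summed level of these 28 markers was 14.64 on that array, 13.96 and 14.14 on the other controls and 14.26 to 14.58 on the mutant arrays. Of the 28 markers 5 fell and 2 rose, or 4 and 1 without the first mutant array. These are 17.9% and 7.14%, against 13.4% and 11.3% of all genes. Those that fell were can, nht, CycB3, tomb and vis. On the mutant arrays can, tomb and vis lay within the range of the dim control probe sets. The upper end of that range was higher on the mutant arrays (6.36 to 6.75) than on the control arrays (5.93 to 5.96). The part of testis RNA in the paralogs' values was not tested. The median change of the paralogs, -0.12, came to -0.25 when either the first or the third control array was omitted. It was -0.20 with the third mutant array omitted, -0.08 with the second omitted, and -0.22 after removal of the dimmest 40% of probe sets. With only specific probe sets it was -0.03. Without the second control array it was 0.07, Prosalpha3T was called higher (0.64, adjusted p = 0.0118), and 9 testis markers rose and 3 fell. In that fit 1595 of the 18769 tested probe sets were called higher and 1673 lower. This background counts probe sets, while the markers are counted as genes. The second control array was the highest control for 3 of the 14 19S genes and 3 of the 12 20S genes. How often it was the highest control over all genes was not computed, so these counts have no background beside them.

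Most markers of midgut and muscle were higher in the mutant, while the other tissues below had at most 1 call in each direction. Of all genes 13.4% were called lower and 11.3% higher. Of the midgut markers 6 of 7 rose, with a summed level of 15.17 to 15.57 in the mutant and 13.47 to 13.58 in the control. All 4 measured muscle markers rose, and their summed level was 11.71 to 12.07 in the mutant against 9.97 to 10.15. For the fat body 1 of 4 markers fell, Fbp2, and the summed level was 16.82 to 16.84 in the mutant and 17.08 to 17.14 in the control. Of 4 neuronal markers 1 rose and 1 fell, and of 6 salivary gland markers 1 rose and none fell. The second mutant array stood apart in the salivary gland markers. Their summed level was 14.34 there, 16.45 and 16.27 on the other mutant arrays and 16.02 to 16.29 on the control arrays. None of the 3 female markers was called, and neither was msl-2, the measured marker of male dosage compensation. The part of tissue make-up in the changes of the 19S genes was not tested.

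The called genes lie on several chromosomes. Of the 40 genes 9 are on 2R, the arm of Sox14, and 8 on 2L. Of the 7 that fell, Rpn6 and Rpn13 are on 2R, Rpn3 and Rpn11 on 2L, and Rpn1, Rpn2 and Rpt2 on chromosome 3. The Sox14 allele and other differences between the mutant and control lines, on chromosome 2 or elsewhere, cannot be told apart. This holds for genes on every chromosome.

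Companion genes were described from 6 lists drawn up around the ubiquitin-proteasome system, and their counts are set beside the 13.4% of all genes called lower and the 11.3% called higher. Of ubiquitin itself and the enzymes that activate and conjugate it, 5 of 11 measured genes fell, or 45.5%, and none rose (at an unadjusted p under 0.05, 5 lower and 1 higher), with a median change of -0.33. The probe sets of both polyubiquitin genes fell. That of Ubi-p63E is not of the type designed for 1 gene, and whether it also reads Ubi-p5E was not tested. Ubi-p63E read 12.86, 13.10 and 13.03 on the mutant arrays and 13.40, 13.49 and 13.49 on the control arrays (change -0.46 ± 0.10, adjusted p = 0.0110). Ubi-p5E read 12.70, 12.70 and 12.71 against 13.47, 13.61 and 12.93 (change -0.64 ± 0.16, adjusted p = 0.0270), and the third control array lay closer to the mutant than the other controls. Its call was lost with any array but that one left out (adjusted p from 0.0656 to 0.0857). The genes in which ubiquitin is fused to a ribosomal protein were not called, with changes of 0.08 for RpS27A and 0.11 for RpL40.

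Among the conjugating enzymes Ubc2 read 11.12, 11.37 and 11.43 on the mutant arrays and 11.89, 12.01 and 11.80 on the control arrays (change -0.59 ± 0.11, adjusted p = 0.00686). The gap between its groups exceeded the range within either. The other 2 of the 5 were vih, the conjugating enzyme of the anaphase-promoting complex (-0.42 ± 0.13, adjusted p = 0.0498), and morgue, an F-box protein with a domain like that of conjugating enzymes (-0.33 ± 0.09, adjusted p = 0.0295). They were outside the rule for named genes and were chosen after their values were seen. Only 2 of the 11 were called lower without the first mutant array, 2 without the second and 2 without the first control array. The count was 3 with the replicate number as a block and 3 with only probe sets designed for 1 gene. Ubi-p63E and Ubc2 were not measured with only such probe sets, so their calls were not checked there.

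Of 7 deubiquitinases and shuttle factors 2 fell, or 28.6% against 13.4% of all genes, and none rose (3 and 1 at an unadjusted p under 0.05), with a median change of -0.17. The counts were the same without the first mutant array. Usp5, which disassembles free ubiquitin chains, read 9.58, 9.74 and 9.93 against 10.25, 10.47 and 10.54 (change -0.67 ± 0.12, adjusted p = 0.00616). Uch, a ubiquitin hydrolase, read 11.30, 11.42 and 11.36 against 11.98, 11.93 and 12.04 (change -0.62 ± 0.09, adjusted p = 0.00128). For both, the mutant arrays were all below the controls. Usp14, the deubiquitinase that docks on Rpn1, had a change of -0.17 ± 0.09 and was not called (adjusted p = 0.228).

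Of 12 genes for the unfoldase p97 and its cofactors 3 fell, or 25% against 13.4% of all genes, and none rose (4 and 1 at an unadjusted p under 0.05), with a median of -0.17. Without the first mutant array 3 were called lower too. Ubc6 and Ubc7 are in this list and in the ubiquitin list, and Ubc7 is the gene counted as higher at the unadjusted threshold in both. The cofactor genes p47 (-0.70 ± 0.15, adjusted p = 0.0131) and Ufd1 (-0.44 ± 0.08, adjusted p = 0.00753) fell, and so did CG8892 (-0.44 ± 0.10, adjusted p = 0.0139). CG8892 was no longer called when the second mutant array was left out (adjusted p = 0.0633). The gene of p97 itself, TER94, had a change of -0.28 ± 0.12 and was not called (adjusted p = 0.142).

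Of 20 genes of the cullin ligase core 3 fell and none rose (7 and 0 at an unadjusted p under 0.05), with a median of -0.05. This is 15%, near the 13.4% of all genes called lower, and 3 were called lower without the first mutant array as well. The 3 included a cullin and its RING partner: Cul5 read 10.00, 10.12 and 10.23 against 10.79, 10.98 and 11.03 (change -0.82 ± 0.11, adjusted p = 0.000847), and Roc2, which pairs with Cul5, read 10.81, 10.50 and 10.39 against 11.50, 11.32 and 11.39 (change -0.84 ± 0.12, adjusted p = 0.00178). They fell to 56.8% and 56.0% of the control level. Cul6 fell by 0.85 on the log2 scale (change -0.85 ± 0.13, adjusted p = 0.00219). The genes of the more widely used scaffold Cul1 (-0.21 ± 0.09, adjusted p = 0.153) and of SkpA (-0.05 ± 0.10, adjusted p = 0.804) were not called.

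The COP9 signalosome, which removes the ubiquitin-like protein Nedd8 from cullins and is built like the proteasome lid, had 1 called gene of 9 (3 lower and 0 higher at an unadjusted p under 0.05; median -0.17). This is 11.1%, below the 13.4% of all genes, and 1 was called without the first mutant array too. The called gene was CSN5, the metalloprotease that corresponds to Rpn11, which read 10.03, 10.20 and 10.13 against 10.65, 10.55 and 10.72 (change -0.52 ± 0.09, adjusted p = 0.00520). The mutant and control arrays of CSN5 were separated by more than the range within either group. CSN6, which corresponds to Rpn8, had a change of -0.20 ± 0.09 (adjusted p = 0.176).

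In the list of assembly factors, activators and regulators, 1 of 14 fell and 2 rose (3 and 3 at an unadjusted p under 0.05), with a median of -0.08. These are 7.14% and 14.3%, against 13.4% and 11.3% of all genes, and without the first mutant array 1 fell and 1 rose. Those that rose were CG8858 (0.60 ± 0.10, adjusted p = 0.00443) and CG13319 (0.39 ± 0.10, adjusted p = 0.0243), for which the annotation used here gives no role. The call of CG13319 was lost with any array but the third control array left out (adjusted p from 0.0614 to 0.0738). The fall was in Dmtn (-1.04 ± 0.11, adjusted p = 0.000278), for which a role at the proteasome is not known from the annotation either. Pomp, the chaperone of core assembly, had a change of 0.19 ± 0.13 (adjusted p = 0.374). The gene of the activator REG, a cap that replaces the 19S particle, had one of -0.14 ± 0.10 (adjusted p = 0.384). The transcription factor gene cnc, whose CncC product is known to raise proteasome gene expression in flies, had one of -0.15 ± 0.10 (adjusted p = 0.346), and its repressor gene Keap1 one of -0.09 ± 0.10 (adjusted p = 0.631).

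**Figure D5:**
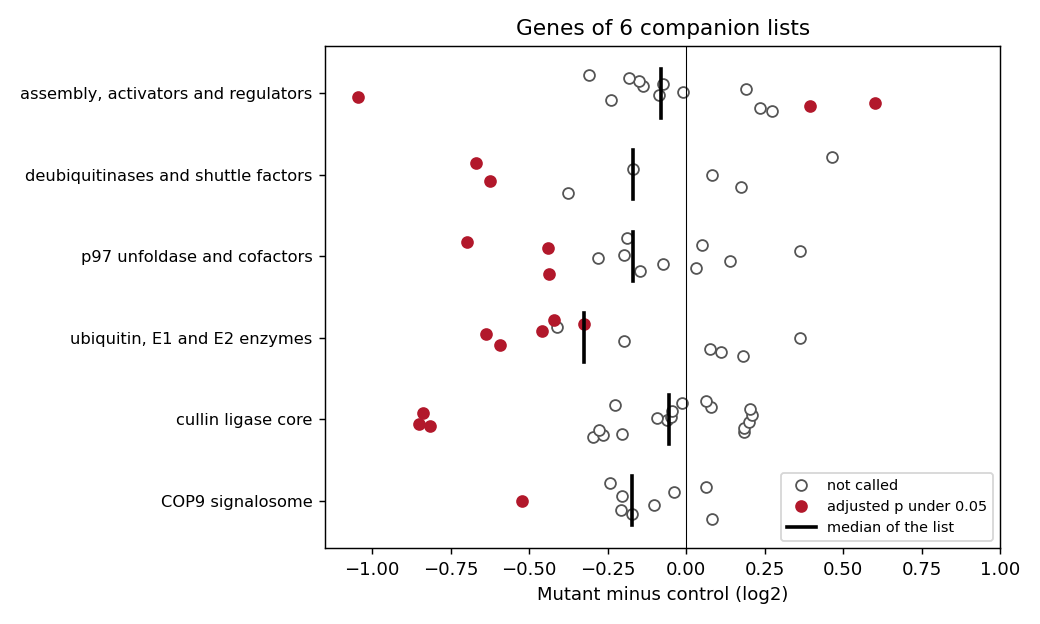
Change of each measured gene (mutant minus control, log2, horizontal axis) in 6 companion lists; filled points had an adjusted p under 0.05 and bars mark each list's median. The filled points are negative in all lists except for CG8858 and CG13319 among the assembly factors, activators and regulators.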

How the data were processed

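The authors deposited log2 values. The submitters' processing notes name RMA and Affymetrix Expression Console 1.1. No label names the build behind the array, so chromosome arms come from RefSeq (Release 6 plus ISO1 MT) by gene identifier, which matched all 40 genes and changed 0 symbols, and no coordinates are given. Of 18952 probe sets, 183 controls were left out. The 18769 others were compared between genotypes with limma 3.58.1 (lmFit, then eBayes; R 4.3.3), in 2-sided tests adjusted over all of them, on all 6 arrays, which was checked on simulated data. Genes are represented by the brightest of their single-gene probe sets. Dim means below the 95th percentile of 100 AFFX-Dm control probe sets on the same array.

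The members, role groups, lists and tests were chosen with earlier results of these data known. By rule, every called member, the largest change of each role group, and the catalytic subunits (Prosbeta2 and Prosbeta5, as Prosbeta1 had no such probe set) are given by array, and up to 3 called genes of each list are named. Other genes of the lists were named for their role. As listed, the assembly list also took Dmtn and CHOp24, a cargo receptor of the secretory pathway, which are not known proteasome factors. Listed genes with no such probe set were left out. The alternatives were each array left out, a threshold of 0.01, array weights, a trended robust variance, quantile normalization, median centring, the replicate number as a block, leaving out the dimmest 40% of probe sets, averaging all probe sets of a gene, and only probe sets specific to 1 gene.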

Additional observations from a re-analysis of the deposited data

How the results depend on the processing

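With 1 array left out in turn, 4 to 8 subunit genes were called lower, the 4 without the second mutant array, and 0 to 1 higher. In these fits 1326 to 1673 of all tested probe sets were called lower and 1167 to 1595 higher. At a threshold of 0.01 the count lower was 3 (Rpn2, Rpn3 and Rpn13), and 1963 probe sets were called in all, 1000 lower and 963 higher, instead of 3577, 1956 and 1621. Rpn2, Rpn3 and Rpn13 were called under all alternatives that measured them, and Rpn11 under all but the threshold of 0.01. With only probe sets specific to 1 gene, 35 subunit genes were measured and 5 were called lower, all of the 19S. Rpn6, Rpn13, Prosbeta5, Prosbeta7 and Rpn12R were not measured there. With array weights 1 subunit gene, Prosalpha3T, was called higher. Paralogs were called lower in some alternatives: Prosbeta2R1 with median centring, with quantile normalization and without the third mutant array, Prosbeta2R2 without the third mutant array, and Prosbeta5R2 without the first control array. Rpn8 was called lower with median centring and with a trended robust variance. No 20S gene was called under any of the 15 alternatives. The mean change of the 20S beta ring, 0.02, was -0.0247 with median centring and -0.0180 with quantile normalization. Median centring moved the median change over all probe sets from -0.03 to -0.07.

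Among the companion lists, the assembly list had 2 genes lower with median centring, 2 with array weights and 0 with specific probe sets, and 1 to 2 genes higher with an array left out and 1 at 0.01. The p97 list had 1 lower at 0.01 and 1 higher with array weights. The ubiquitin list had 3 lower with the replicate block, 3 with specific probe sets, 1 at 0.01 and 2 to 4 with an array left out, and 1 higher with array weights. The COP9 list had 2 lower with array weights. Deviations of same-numbered arrays correlated at 0.17, -0.10 and -0.02, within the range of differently numbered pairs, -0.26 to 0.26. With 3 arrays per genotype this check cannot settle whether the replicate numbers pair the samples. With the replicate block 6 subunit genes were called lower, without Rpn6, and 3276 probe sets in all. No call reversed its direction in the 15 alternatives. Signal range limits bright and dim probe sets, and the number of arrays limits small changes.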
